A study of Homo sapiens with 6 samples.

Results

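Interferon-stimulated genes were followed clone by clone in clones of MDA-MB-231, a widely used human breast cancer cell line that lacks hormone receptors. The list held 49 genes known to be induced by interferons, of which 48 had a probe set of their own among the 19777 genes measured, and 1 was not analysed here. Each gene was read from the brightest of its probe sets by the mean of the 6 arrays, without use of the difference between groups. In all, 3 single clones with stable knockdown of WASF3 were compared with 3 control clones, with 1 array for each clone, on an Affymetrix whole-transcriptome array.

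The knockdown clones carried the retroviral vector pSM2 with a short hairpin RNA against WASF3, from 2 hairpins used in the study. The control clones carried the empty pSM2 vector or a hairpin against GFP. The sources used here do not say which hairpin or vector a clone carried. All 6 clones were at passage 4 and resistant to puromycin, which had been applied at 1.0 µg/ml for 2 weeks, and were grown in RPMI medium with fetal bovine serum. Each clone descends from a single infected cell, so a difference between groups may hold differences between the cells of origin. Nothing states that a clone was cultured or hybridised more than once. The spread behind the p-values therefore holds differences between clones, cultures and arrays, which cannot be told apart.

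Type I interferons bind the receptor pair IFNAR1 and IFNAR2, whose kinases JAK1 and TYK2 activate STAT factors. Together with IRF9 these bind the interferon-stimulated response element (ISRE) in the promoters of antiviral genes, while interferon gamma acts mainly through the GAS element. Double-stranded RNA in the cytoplasm is sensed by the helicases RIG-I and MDA5, which can turn on interferon and some of the same genes directly. In breast cancer cells a standing low output of this programme, without added interferon, is known and has been linked to resistance to DNA damage.

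Values are log2 RMA signals, which the authors had background-corrected and set to the same distribution on every array. Differences are knockdown minus control on this log2 scale, so that 1 is a 2-fold difference in signal. The array medians lay between 5.12 and 5.17. WASF3, an activator of branched actin growth, read 5.40, 5.80 and 4.52 in knockdown clones 1, 2 and 3, against 6.77, 6.42 and 6.59 in control clones 1, 2 and 3. Every knockdown clone was below every control clone, with the lowest signal in knockdown clone 3. Clones 1 and 3 read below 5.61, the 90th percentile of the leukocyte markers, used here as a background level, so the depth of the knockdown there is uncertain (change −1.35, SE 0.29, adjusted p = 0.102 in limma). The 7 markers of the line (VIM, CD44, EGFR, KRT8, KRT18, AXL and CAV1) had group means of at least 10.30 in knockdown and control clones, but differed between clones. In knockdown clone 3, 5 of the 7 lay below all control clones, against 39.2% of all genes. KRT18 was at −0.93, KRT8 at −0.90 and CD44 at −0.77, while EGFR was higher at 1.14. For 2 of the 7, KRT8 and KRT18, all knockdown clones lay below all control clones, against 12.5% of all genes. Of 7 luminal breast markers all lay below the control clones in clone 3, against 39.2% of all genes, with AGR2 5.56-fold below the control mean. The gap was small for PGR, at 3.20 against a lowest control value of 3.22. It was also small for FOXA1, at 3.14 against 3.18, and for ESR1, at 5.66 against 5.70. PGR and FOXA1 lay below the background level of 5.61 in every clone. KRT19 and AGR2 were bright in every clone, and ESR1 and GATA3 lay between. CDH1 lay above the background level in knockdown clone 1 only. The part of these differences in the results below was not tested. Of 15 leukocyte markers, which include those of interferon-producing plasmacytoid dendritic cells, the summed log2 signal was 69.2 to 70.6 in knockdown and 70.1 to 71.1 in control clones. The pan-leukocyte gene PTPRC read 3.11 to 3.36 in knockdown and 3.05 to 3.41 in control clones, near the bottom of the scale.

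The interferon-stimulated genes split the knockdown clones. Many were higher than in any control clone in knockdown clones 1 and 2, and most were lower than in any control clone in clone 3. The median difference from the control mean over the 48 genes was 0.19 in clone 1, 0.38 in clone 2 and −0.60 in clone 3, against 0.00, −0.02 and −0.02 over all genes. In 22 of the 48 genes (45.8%) clones 1 and 2 both lay above all control clones while clone 3 lay below all of them, against 6.45% of all genes. Of the 22, OAS1, RSAD2, CMPK2, USP18, CXCL10, EPSTI1 and TRIM22 had mean levels below the background level of 5.61. Clone 1 lay above all control clones in 27 of the 48 genes and below all in 16, against 36.7% and 34.3% of all genes. Clone 2 lay above all in 31 and below all in 15, against 35.3% and 37.7%, and clone 3 above all in 3 and below all in 42, against 34.5% and 39.2%. Clone 3 had the lowest signal of the 6 clones in 36 of the 48 (75%), against 25.9% of all genes. Both counts describe a pattern that was seen in the data before it was counted. An array averages over all cells of a clone, so fewer cells expressing a gene and less RNA per cell cannot be told apart.

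**Figure D1:**
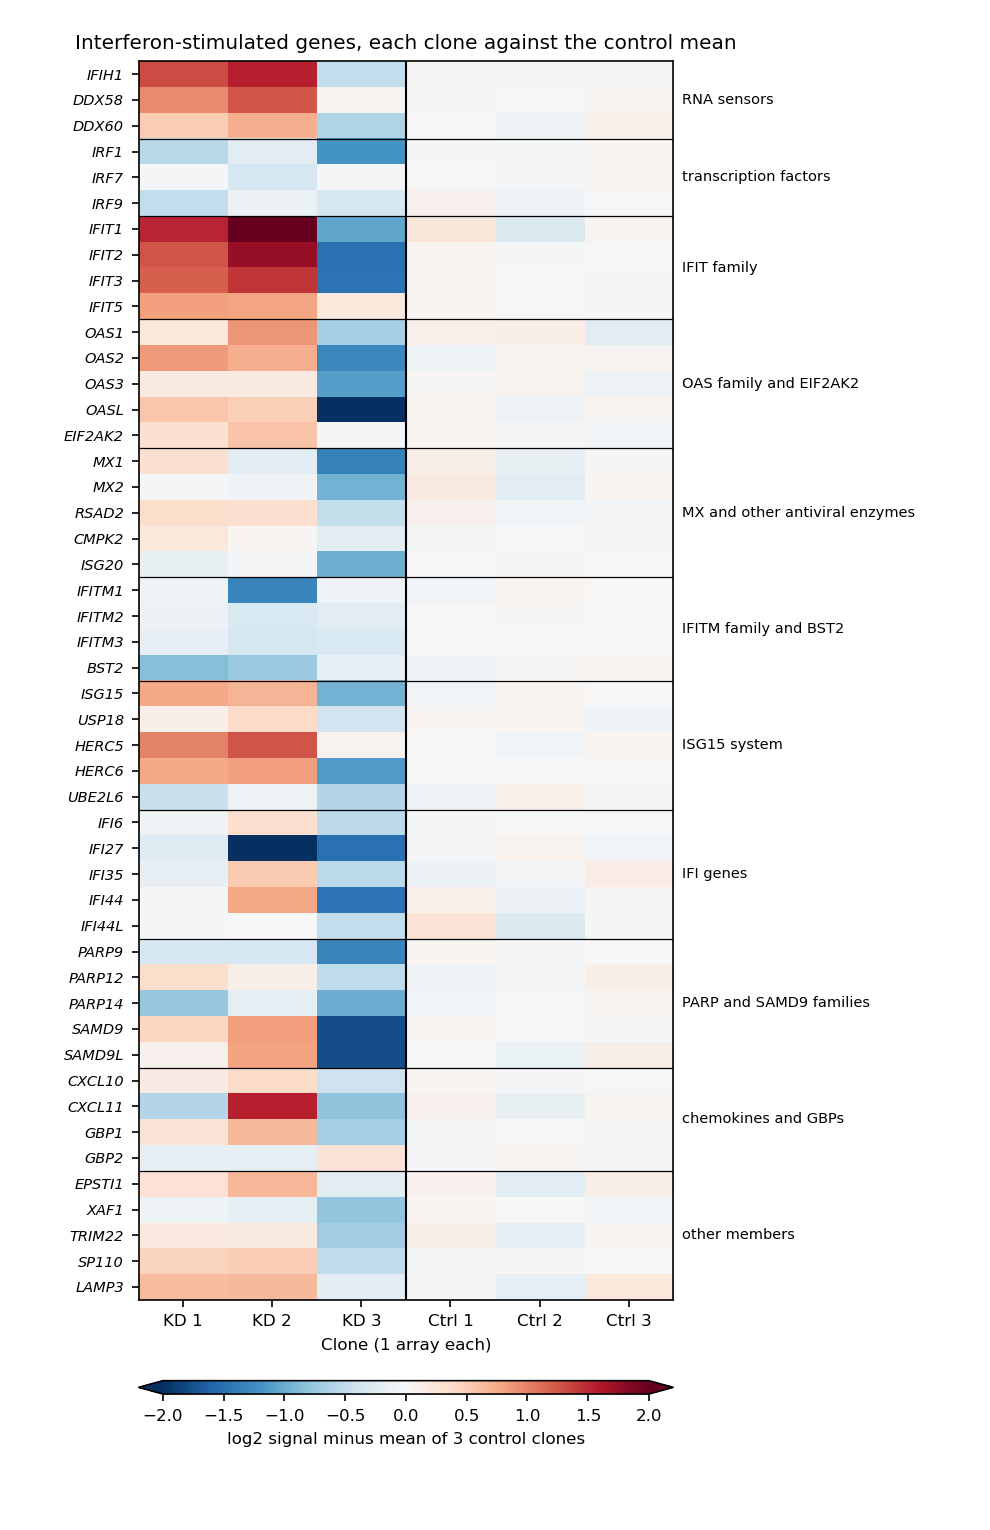
Difference in log2 signal from the mean of the 3 control clones for the 48 interferon-stimulated genes (rows, grouped by role) in each knockdown (KD) and control (Ctrl) clone (columns). Most rows are red in knockdown clones 1 and 2 and blue in knockdown clone 3, while the control columns stay pale.

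The comparison of group means gave no call. None of the 48 genes passed in the limma comparison of 3 knockdown with 3 control clones at an adjusted p under 0.05, where 0.738% of all genes passed (0.319% higher, 0.42% lower). At an unadjusted p under 0.05, 3 were higher and 9 were lower in the knockdown clones, that is 6.25% and 18.8% of the genes, against 9.11% and 7.67% of all genes. The median change over the list was −0.05, against −0.01 over all genes. With 3 clones against 3, an exact permutation test on a single gene cannot go below p = 0.1.

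Set against the control mean, knockdown clone 1 had 4 of the 48 genes at least 2-fold higher and 0 at least 2-fold lower, where 0.501% and 0.551% of all genes passed these folds. Knockdown clone 2 had 7 at least 2-fold higher and 2 at least 2-fold lower, against 0.844% and 0.672% of all genes. Knockdown clone 3 had 0 at least 2-fold higher and 14 at least 2-fold lower, against 1.47% and 1.75% of all genes. In all, 19 of the 48 genes were at least 2-fold off in at least 1 knockdown clone (39.6%, against 4.7% of all genes), and 4 were at least 2-fold higher in clones 1 and 2 both (8.33%, against 0.157%). These are descriptions of single clones with no test. No gene of the list, and none of all genes measured, differed 2-fold between a control clone and the mean of the other control clones. The spread between clones was larger among knockdown than among control clones in 47 of the 48 genes (97.9%), against 76.7% of all genes. The median SD of the list was 0.52 in knockdown and 0.06 in control clones, against 0.16 in knockdown and 0.08 in control clones over all genes. The limma comparison pools these unequal spreads of the groups.

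**Figure D2:**
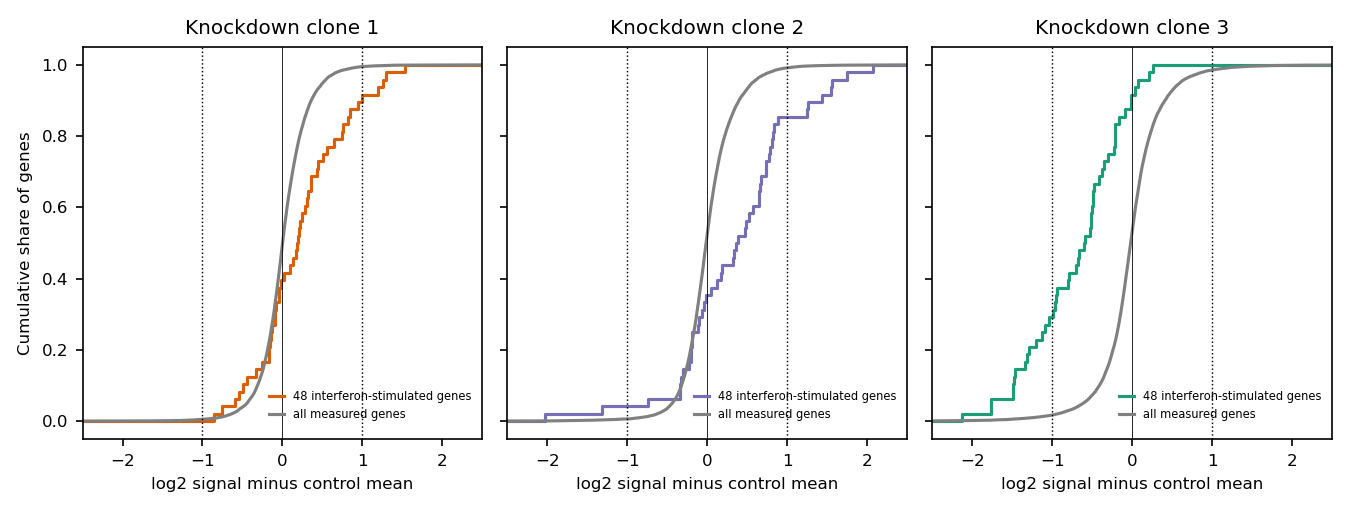
Cumulative share of genes (vertical axis) by log2 signal minus the control mean (horizontal axis) in each knockdown clone, for the 48 interferon-stimulated genes (coloured steps) and all measured genes (grey). The coloured curve lies right of the grey one over most of its range in clones 1 and 2 and left of it in clone 3. Dotted lines mark a 2-fold difference.

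The IFIT genes, whose products bind viral RNA and block its translation, held the widest swings. IFIT1 read 11.31, 11.85 and 8.74 in knockdown clones 1, 2 and 3, against 10.01, 9.49 and 9.83 in control clones 1, 2 and 3. IFIT2 read 11.39, 11.87 and 8.64 in the knockdown clones, against 10.18, 10.09 and 10.12 in the control clones. IFIT3 read 12.60, 12.84 and 9.93 in the knockdown clones, against 11.44, 11.41 and 11.36 in the control clones. In each of these genes clones 1 and 2 were above and clone 3 below all control clones. Against the control mean, IFIT1 was 2.89-fold and 4.22-fold higher in clones 1 and 2 and 2.05-fold lower in clone 3. For IFIT2 the figures were 2.39-fold and 3.35-fold higher and 2.80-fold lower, and for IFIT3 2.29-fold and 2.71-fold higher and 2.77-fold lower. Between the highest and the lowest knockdown clone the signal of IFIT2 differed 9.39-fold, that of IFIT1 8.66-fold and that of IFIT3 7.51-fold. Ranked by this spread, IFIT2, IFIT1 and IFIT3 stood 15th, 22nd and 29th among all genes. They were also 3 of only 21 genes of the whole table (0.106%) that were at least 2-fold higher in clone 1 or 2 and at least 2-fold lower in clone 3.

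The group means of these genes carried wide errors. IFIT1 was at 10.63 ± 1.66 in knockdown and 9.78 ± 0.26 in control clones (change 0.86, SE 0.71, adjusted p = 0.663 in limma). IFIT2 gave 0.51 (SE 0.74, adjusted p = 0.821 in limma) and IFIT3 0.39 (SE 0.69, adjusted p = 0.856 in limma). The second probe sets of IFIT2 and IFIT3 gave the same order of clones, at 1.09, 1.74 and −1.15 for IFIT2 and 1.02, 1.65 and −1.24 for IFIT3 in clones 1, 2 and 3. IFIT5, which lies in the same cluster on chromosome 10, did not share the low value in clone 3. It read 8.75, 8.72 and 8.14 in the knockdown clones, against 7.96, 7.92 and 7.91 in the control clones. All knockdown clones were above all control clones, with a change of 0.61 (SE 0.16, adjusted p = 0.162 in limma).

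**Figure D3:**
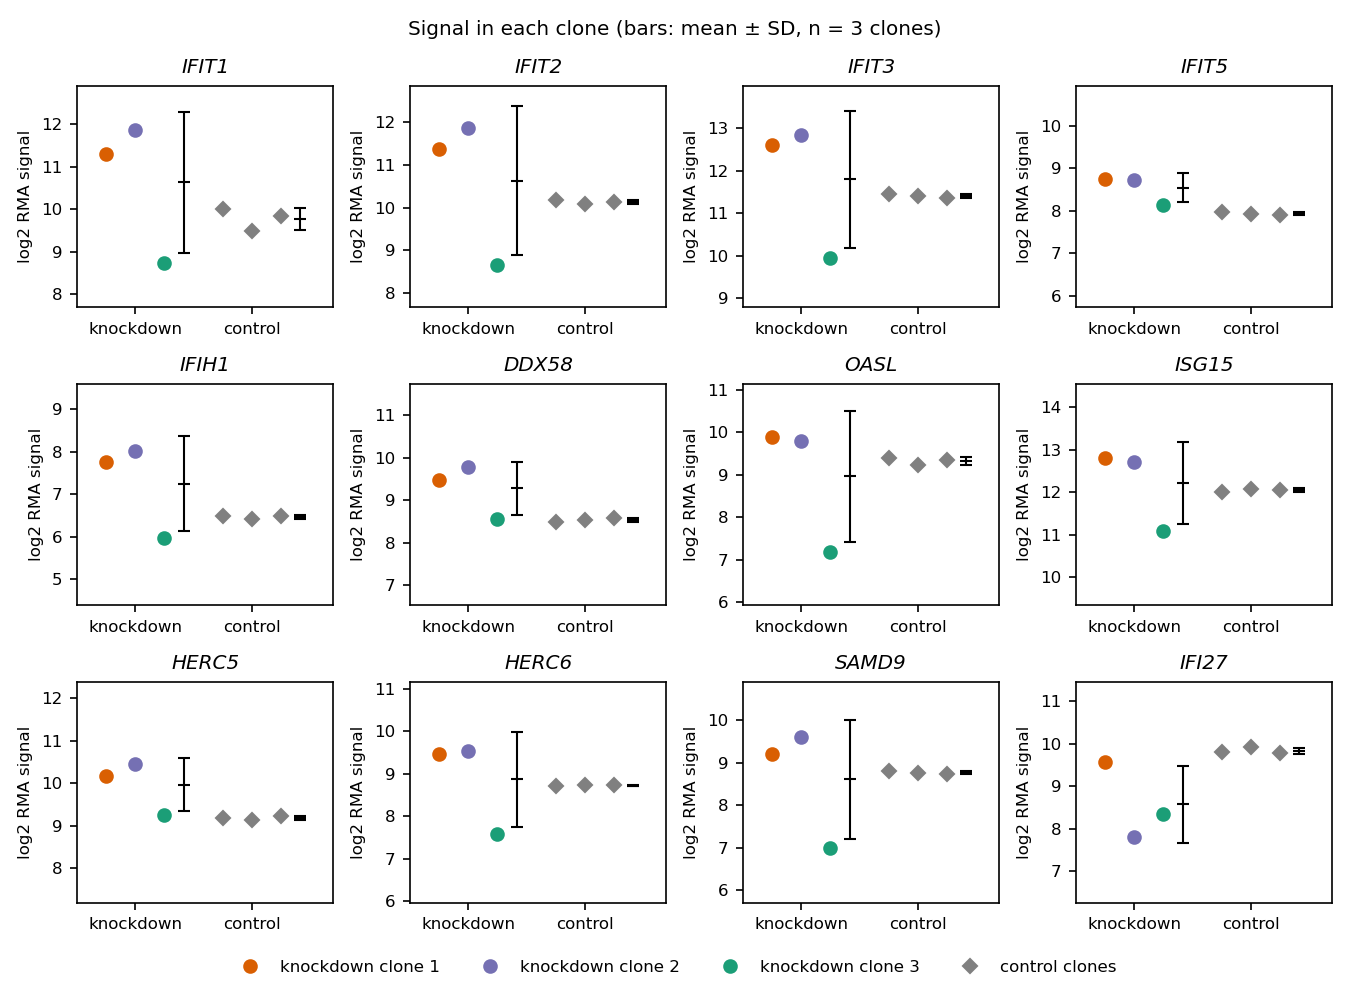
Log2 RMA signal (vertical axes, each spanning the same number of log2 units) in the 3 knockdown clones (coloured by clone) and the 3 control clones (grey) for 12 interferon-stimulated genes, with mean ± SD beside each group. Knockdown clone 3 lies below the control clones for IFIT1, IFIT2, IFIT3, IFIH1, OASL, ISG15, HERC6, SAMD9 and IFI27 but not for IFIT5, DDX58 and HERC5.

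The cytoplasmic RNA sensors were high in clones 1 and 2 as well. IFIH1, which encodes MDA5, read 7.76, 8.02 and 5.98 in knockdown clones 1, 2 and 3, against 6.49, 6.42 and 6.49 in the control clones. Clones 1 and 2 were 2.46-fold and 2.93-fold above the control mean, and clone 3 was 1.40-fold below it. DDX58, which encodes RIG-I, read 9.48, 9.78 and 8.57 in the knockdown clones, against 8.49, 8.53 and 8.58 in the control clones. On this brightest probe set, whose name marks probes shared with other transcripts, clone 3 fell within the range of the control clones. The probe sets of DDX58 disagreed on clone 3, which differed from the control mean by 0.03 on the brightest, 0.26 on the next and 1.04 on the dimmest. On the next, clone 3 read 7.93, against 7.69, 7.58 and 7.73 in the control clones, so that all knockdown clones lay above all control clones. On the dimmest all knockdown clones were alike, at 7.96, 8.12 and 8.01, against 6.96, 6.92 and 7.05 in the control clones, and the change of 1.05 passed over all probe sets (SE 0.09, adjusted p = 0.0120 in limma). DDX60, a helicase related to these sensors, differed by 0.51, 0.73 and −0.60 in clones 1, 2 and 3.

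Among the transcription factors, IRF1 did not follow the split. It read 8.17, 8.51 and 7.51 in the knockdown clones, against 8.69, 8.70 and 8.76 in the control clones, so that all knockdown clones lay below all control clones. The change was −0.65 (SE 0.23, adjusted p = 0.261 in limma), with clone 3 at 2.30-fold below the control mean. IRF9, the DNA-binding partner of the STAT factors, differed by −0.49, −0.12 and −0.35 in clones 1, 2 and 3, again with no overlap between groups. IRF7, which amplifies interferon production, differed by −0.02, −0.34 and −0.02.

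The oligoadenylate synthetases, which make the activator of RNase L, showed mostly the low values of clone 3. OASL, a related protein without that activity, read 9.88, 9.80 and 7.19 in knockdown clones 1, 2 and 3, against 9.39, 9.22 and 9.36 in the control clones. Clone 3 was 4.37-fold below the control mean, the largest drop of the list in that clone, while clones 1 and 2 were 1.47-fold and 1.39-fold above it. OAS2 read 7.43, 7.31 and 5.28 in the knockdown clones, against 6.47, 6.62 and 6.63 in the control clones. OAS3 differed by 0.18, 0.18 and −1.09 in clones 1, 2 and 3. The double-stranded RNA kinase EIF2AK2 differed by 0.30, 0.57 and −0.02. MX1, a GTPase that blocks viral nucleocapsids, read 7.12, 6.58 and 5.46 in the knockdown clones, against 6.94, 6.66 and 6.82 in the control clones, with clone 3 at 2.54-fold below the control mean. Its neighbour MX2 and the nuclease ISG20 differed by −0.94 and −0.97 in clone 3, and by no more than 0.14 in size in clones 1 and 2.

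ISG15, a ubiquitin-like protein that is attached to other proteins during an antiviral response, was among the brightest genes of the list. It read 12.80, 12.72 and 11.09 in knockdown clones 1, 2 and 3, against 11.998, 12.08 and 12.06 in the control clones, or 1.69-fold and 1.59-fold above and 1.94-fold below the control mean. HERC5, the ligase that attaches ISG15, read 10.18, 10.44 and 9.26 in the knockdown clones, against 9.17, 9.13 and 9.23 in the control clones. It was the other gene, beside IFIT5, with all knockdown clones above all control clones (0.78, SE 0.27, adjusted p = 0.265 in limma), against 12.1% of all genes. Clone 1 missed the 2-fold mark for HERC5 narrowly (1.00 after rounding). HERC6, which lies next to HERC5 on chromosome 4, read 9.47, 9.54 and 7.59 in the knockdown clones, against 8.71, 8.72 and 8.73 in the control clones. Clone 3 was 2.19-fold below the control mean for HERC6 and 1.05-fold above it for HERC5. UBE2L6, the conjugating enzyme for ISG15, differed by −0.45, −0.11 and −0.59. USP18, which removes ISG15 and restrains the receptor, had a mean level of 5.15 and differed by 0.14, 0.39 and −0.38.

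SAMD9 and SAMD9L, neighbouring antiviral genes on chromosome 7, were lowest in clone 3. SAMD9 read 9.21, 9.61 and 7.01 in knockdown clones 1, 2 and 3, against 8.82, 8.77 and 8.74 in the control clones, with clone 3 at 3.41-fold below the control mean. SAMD9L read 6.92, 7.63 and 5.06 in the knockdown clones, against 6.84, 6.70 and 6.94 in the control clones. IFI44 read 9.57, 10.32 and 8.07 in the knockdown clones, against 9.65, 9.43 and 9.56 in the control clones. PARP9 and PARP14, mono-ADP-ribosyltransferase family members that lie together on chromosome 3, had all knockdown clones below all control clones. PARP9 differed by −0.33, −0.33 and −1.32 in clones 1, 2 and 3, and PARP14 by −0.75 and −0.20 in clones 1 and 2, with clone 3 at 1.99-fold below the control mean.

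In 12 of the 48 genes (25%) all knockdown clones lay below all control clones, against 12.5% of all genes. They were IRF1, IRF9, ISG20, IFITM1, IFITM2, IFITM3, BST2, UBE2L6, IFI27, PARP9, PARP14 and XAF1, several of them named after their values were seen. IFI27, a mitochondrial protein and one of the most interferon-sensitive transcripts, read 9.57, 7.80 and 8.33 in knockdown clones 1, 2 and 3, against 9.81, 9.91 and 9.77 in the control clones. Here clone 2 was the lowest, at 4.08-fold below the control mean, and clone 3 was 2.82-fold below it (change over all clones −1.26, SE 0.39, adjusted p = 0.213 in limma). IFITM1, a membrane protein that blocks virus entry, read 9.94, 8.71 and 9.94 in the knockdown clones, against 9.97, 10.09 and 10.02 in the control clones, so that the difference lay in clone 2. IFITM1, IFITM2 and IFITM3 are close relatives read by probe sets whose names mark probes shared with other transcripts, and their separate values are uncertain. IFITM2 differed by −0.12, −0.31 and −0.21 and IFITM3 by −0.16, −0.35 and −0.31 in clones 1, 2 and 3. BST2, which tethers budding virus to the membrane, differed by −0.85, −0.74 and −0.16, so that clone 3 was nearest to the control clones.

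Of the secreted chemokines, CXCL11 stood out in clone 2. It read 3.20, 5.35 and 2.99 in knockdown clones 1, 2 and 3, against 3.88, 3.64 and 3.85 in the control clones. These levels lie below the background level of 5.61, so that the size of the difference is uncertain. The mean level of 9 of the 48 genes lay at or below that level (OAS1, RSAD2, CMPK2, USP18, IFI44L, CXCL10, CXCL11, EPSTI1 and TRIM22), and these are not shown to be above background. The other 39 had medians of 0.18, 0.48 and −0.68 in clones 1, 2 and 3. The GTPases of the GBP family parted. GBP1 differed by 0.25, 0.65 and −0.68 in clones 1, 2 and 3, and GBP2 by −0.17, −0.19 and 0.26. GBP2 was the only gene of the list with clones 1 and 2 below and clone 3 above all control clones, against 4.34% of all genes, and its second probe set differed by −0.28, −0.47 and −0.60.

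Of 16 genes with several probe sets above the leukocyte marker percentile, all probe sets of a gene shared the sign of the difference in 11 genes for clone 1, in 16 for clone 2 and in 13 for clone 3. The genes with mixed signs in clone 3 were EIF2AK2, GBP2 and SP110. In clone 1 they were OAS2, EIF2AK2, SAMD9L, GBP1 and SP110, of which OAS2, GBP1 and SP110 showed the split. Without clone 3, in a fit on 2 knockdown and 3 control clones, 15 of the 48 genes rose and 1 fell at an adjusted p under 0.05 in limma. Over all genes 3.96% rose and 2.23% fell in this fit, against 0.319% and 0.42% with all clones. Clone 3 itself lay below all control clones in 42 of the 48 genes, so leaving it out favours a rise. The p-values of this fit describe clones 1 and 2 only and do not test the split. OASL and SAMD9 were among the 15 that rose, although their change over all clones was −0.36 for OASL and −0.17 for SAMD9. Those that rose also included IFIH1 (1.42, adjusted p = 0.00315), IFIT3 (1.32, adjusted p = 0.00373), HERC5 (1.13, adjusted p = 0.00716), DDX58 (1.10, adjusted p = 0.00816) and IFIT1 (1.80, adjusted p = 0.00920). BST2 was the one that fell (−0.80, adjusted p = 0.0112). Without clone 1, IFI27 fell (−1.76, adjusted p = 0.0135) and no other gene of the list passed, where 1.94% of all genes rose and 1.63% fell. Without clone 2 none passed.

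The ISRE core was searched as GAAANNGAAA on both strands of the RefSeq promoter windows (GRCh38.p14, 250 bases before to 50 after each annotated start). Of the 48 genes 38 had at least 1 window. IRF7, IFIT2, OAS2, OASL, MX2, IFITM2, USP18, GBP2, TRIM22 and LAMP3 had none. The core was present in 26 of the 38 (68.4%), against 4.38% of all genes in the promoter table. It was present in 12 of the 16 genes of the split pattern that had a window (75%) and in 7 of the 11 with all knockdown clones below all control clones (63.6%). The GAS motif, searched as TTCNNNGAA, which reads the same on both strands, was present in 13 of the 38 (34.2%), against 9.38% of all genes in the table. It was present in 4 of the 16 genes of the split pattern (25%) and in 6 of the 11 others named above (54.5%). These sets are small, and the difference between them was not tested. Of 16 GAS matches in the windows of the list, 6 overlapped an ISRE match. The 2 windows of IFI27 overlap, so its GAS match, which overlaps an ISRE match, was counted in both. A match is a run of letters and is not shown to be a bound site.

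The windows below show genes that behaved differently in clone 3, with every match of the ISRE core in capitals. IFIT1, IFIT3 (the second of its 2 windows) and HERC6 were below the control clones in clone 3, IFIT5 and HERC5 were not, and IFI27 was below the control clones in all knockdown clones. Sequences run 5′ to 3′ on the gene's strand.
IFIT1 (chr10:89392373-89392672, plus strand): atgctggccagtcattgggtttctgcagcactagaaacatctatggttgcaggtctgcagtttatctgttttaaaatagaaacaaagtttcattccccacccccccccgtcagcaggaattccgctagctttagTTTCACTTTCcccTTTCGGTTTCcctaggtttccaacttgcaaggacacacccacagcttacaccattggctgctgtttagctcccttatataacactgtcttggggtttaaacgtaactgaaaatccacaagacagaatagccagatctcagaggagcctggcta
IFIT3 (chr10:89332279-89332578, plus strand): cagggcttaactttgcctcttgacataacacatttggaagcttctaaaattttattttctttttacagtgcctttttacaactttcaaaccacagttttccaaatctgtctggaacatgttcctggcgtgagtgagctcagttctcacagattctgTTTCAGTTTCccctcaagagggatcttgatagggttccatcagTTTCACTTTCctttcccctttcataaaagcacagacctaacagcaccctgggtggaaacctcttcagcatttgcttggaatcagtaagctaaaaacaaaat
IFIT5 (chr10:89414318-89414617, plus strand): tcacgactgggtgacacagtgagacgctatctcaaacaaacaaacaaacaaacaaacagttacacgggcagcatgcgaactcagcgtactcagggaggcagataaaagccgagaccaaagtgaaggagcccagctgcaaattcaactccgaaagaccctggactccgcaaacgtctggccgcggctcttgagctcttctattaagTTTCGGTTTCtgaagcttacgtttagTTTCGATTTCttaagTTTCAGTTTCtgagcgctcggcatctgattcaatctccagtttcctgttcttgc
HERC5 (chr4:88456869-88457168, plus strand): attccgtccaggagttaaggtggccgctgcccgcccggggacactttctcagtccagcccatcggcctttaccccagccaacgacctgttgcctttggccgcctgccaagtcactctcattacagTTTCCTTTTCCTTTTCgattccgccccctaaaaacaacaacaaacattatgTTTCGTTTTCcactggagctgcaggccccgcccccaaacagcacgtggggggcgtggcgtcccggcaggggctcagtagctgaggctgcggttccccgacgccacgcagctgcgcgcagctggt
HERC6 (chr4:88378602-88378901, plus strand): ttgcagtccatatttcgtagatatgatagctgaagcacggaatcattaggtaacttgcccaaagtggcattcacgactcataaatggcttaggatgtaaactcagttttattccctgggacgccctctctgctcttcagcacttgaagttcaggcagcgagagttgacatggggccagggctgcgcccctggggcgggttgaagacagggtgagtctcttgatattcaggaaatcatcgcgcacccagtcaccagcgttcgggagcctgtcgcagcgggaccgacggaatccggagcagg
IFI27 (chr14:94110486-94110785, plus strand): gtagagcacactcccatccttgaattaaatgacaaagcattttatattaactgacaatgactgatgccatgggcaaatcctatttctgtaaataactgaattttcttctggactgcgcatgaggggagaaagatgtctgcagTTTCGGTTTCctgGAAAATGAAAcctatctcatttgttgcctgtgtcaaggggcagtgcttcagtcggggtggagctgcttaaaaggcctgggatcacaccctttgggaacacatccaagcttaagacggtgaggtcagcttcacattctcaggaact
The window of IFIT1 held 2 matches, from base −116 to −107 and from −103 to −94 counted from the start site as 0, and the window of IFIT3 shown here also held 2. IFIT5 and HERC5 held 3 each, of which 2 overlapped in HERC5. HERC6 held none although its clone values were close to those of ISG15.

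**Figure D4:**
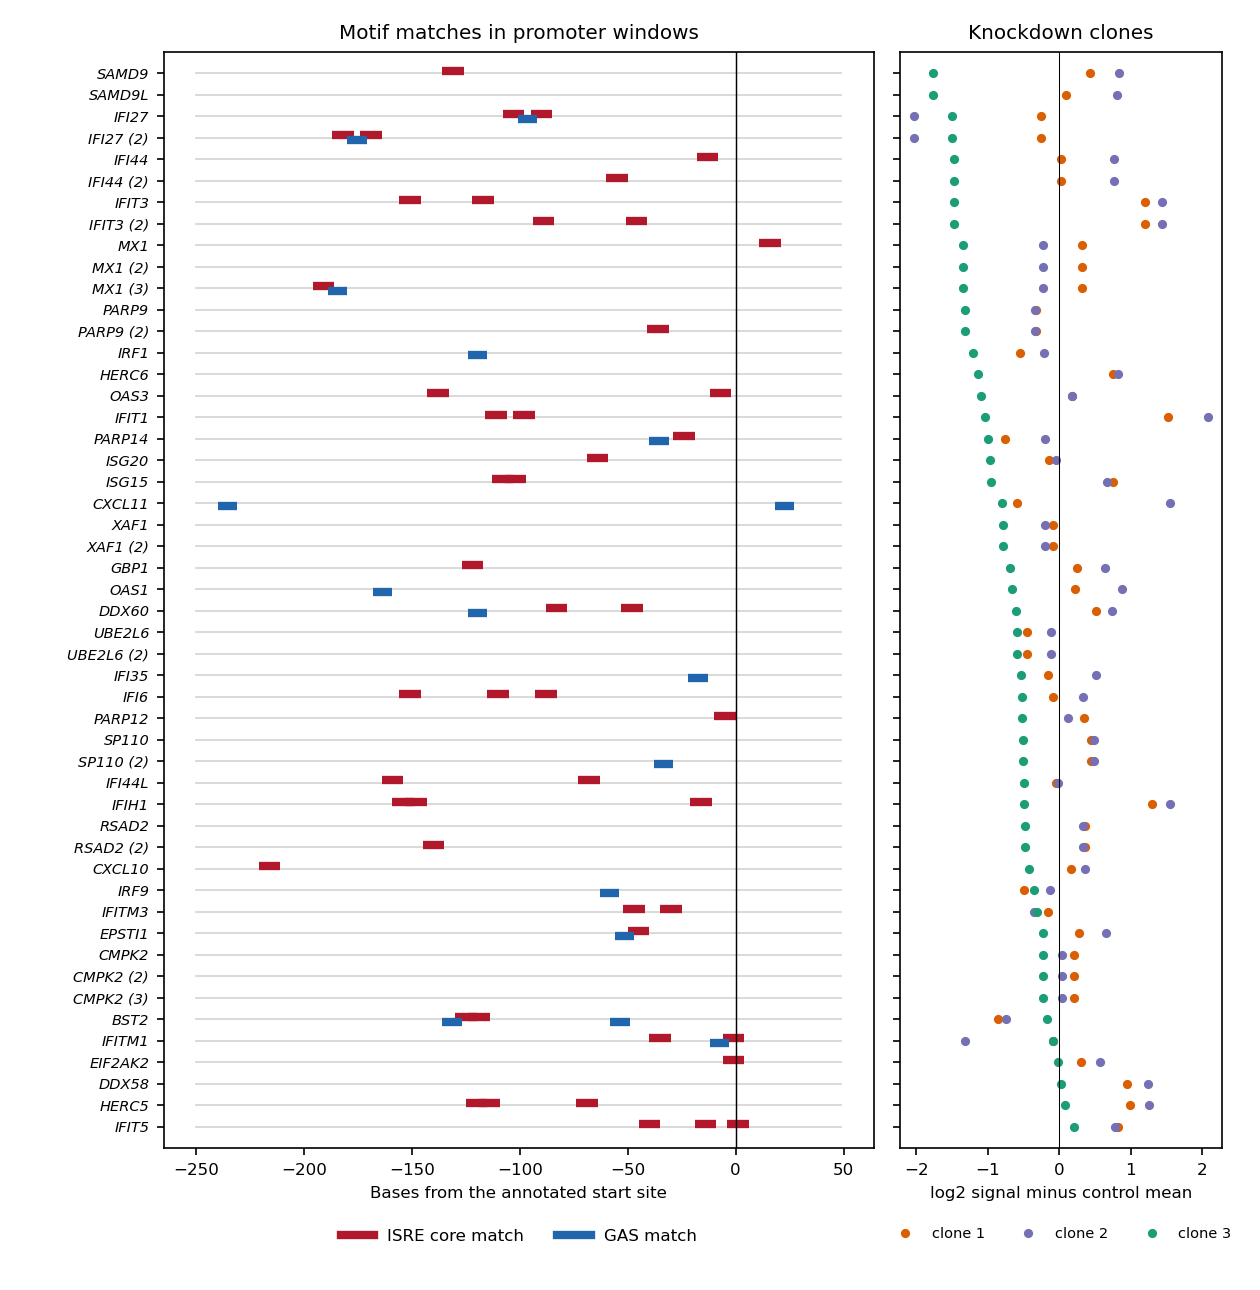
Matches of the ISRE core (red) and the GAS motif (blue) by distance in bases from the annotated start site (left, grey lines span the window) and log2 signal minus the control mean in each knockdown clone (right), for the 38 genes with a promoter window, ordered by clone 3. A number in brackets marks a further window of the same gene. Genes with matches stand at the top, in the middle and at the bottom of the order.

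Other genes of the interferon pathway were read from a list of 42 ligands, receptors, signalling genes, sensors, inhibitors and double-stranded RNA effectors. Of the 42, 38 were measured. Of these, 1 passed in limma (2.63%, against 0.738% of all genes). PNPT1, a mitochondrial RNA-processing enzyme that limits the release of double-stranded RNA, rose in the knockdown clones (0.83, SE 0.13, adjusted p = 0.0491). It read 9.21, 9.60 and 9.36 in knockdown clones 1, 2 and 3, against 8.58, 8.41 and 8.70 in the control clones. Its value sat at the threshold and missed it without any single control clone (adjusted p from 0.241 to 0.292) and without knockdown clone 2 (adjusted p = 0.0888).

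The 8 interferon genes measured, from IFNA1 to IFNL2, lay low in all clones. IFNB1, the first interferon made on RNA sensing, read 3.49, 3.57 and 3.49 in the knockdown clones, against 3.50, 3.49 and 3.54 in the control clones. Differences of single clones from the control mean ran from −0.25 (IFNA1, clone 1) to 0.32 (IFNK, clone 2) among these ligands, at levels not shown to be above background. Of the receptors, IFNAR1 read 7.39, 7.81 and 6.59 in knockdown clones 1, 2 and 3, against 7.63, 7.53 and 7.63 in the control clones, with clone 3 at 2.01-fold below the control mean. Its second probe set gave −1.49 in clone 3. IFNAR2 differed by no more than 0.05 in size in any clone on its brightest probe set. Another of its probe sets differed by −0.30, −0.10 and −0.42 in clones 1, 2 and 3, with all knockdown clones below all control clones (−0.27, SE 0.11, adjusted p = 0.309 in limma). IFNLR1, the interferon lambda receptor chain, read 7.98, 6.31 and 7.29 in the knockdown clones, against 7.52, 7.50 and 7.37 in the control clones, and was lowest in clone 2. IFNGR1 and IFNGR2, the chains of the interferon gamma receptor, differed by 0.21, −0.10 and −0.32 and by −0.43, −0.57 and −0.04 in clones 1, 2 and 3. IL10RB, which is shared with IL10 family receptors, differed by −0.31, 0.06 and −0.24.

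In this pathway list 6 of the 38 genes (15.8%, against 6.45% of all genes) showed clones 1 and 2 above and clone 3 below all control clones. They were JAK2, TLR3, MYD88, MB21D1, DHX58 and SOCS3, named after their values were seen. TLR3, the endosomal receptor of double-stranded RNA, read 5.51, 5.24 and 3.79 in the knockdown clones, against 4.88, 4.91 and 4.75 in the control clones. All values of TLR3 and of JAK2 lay below 5.61, the background level used here. SOCS3, a feedback inhibitor of cytokine receptors, differed by 0.45, 0.44 and −0.58. JAK1 differed by −0.00, 0.24 and −0.42 and TYK2 by 0.09, 0.07 and 0.01.

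**Figure D5:**
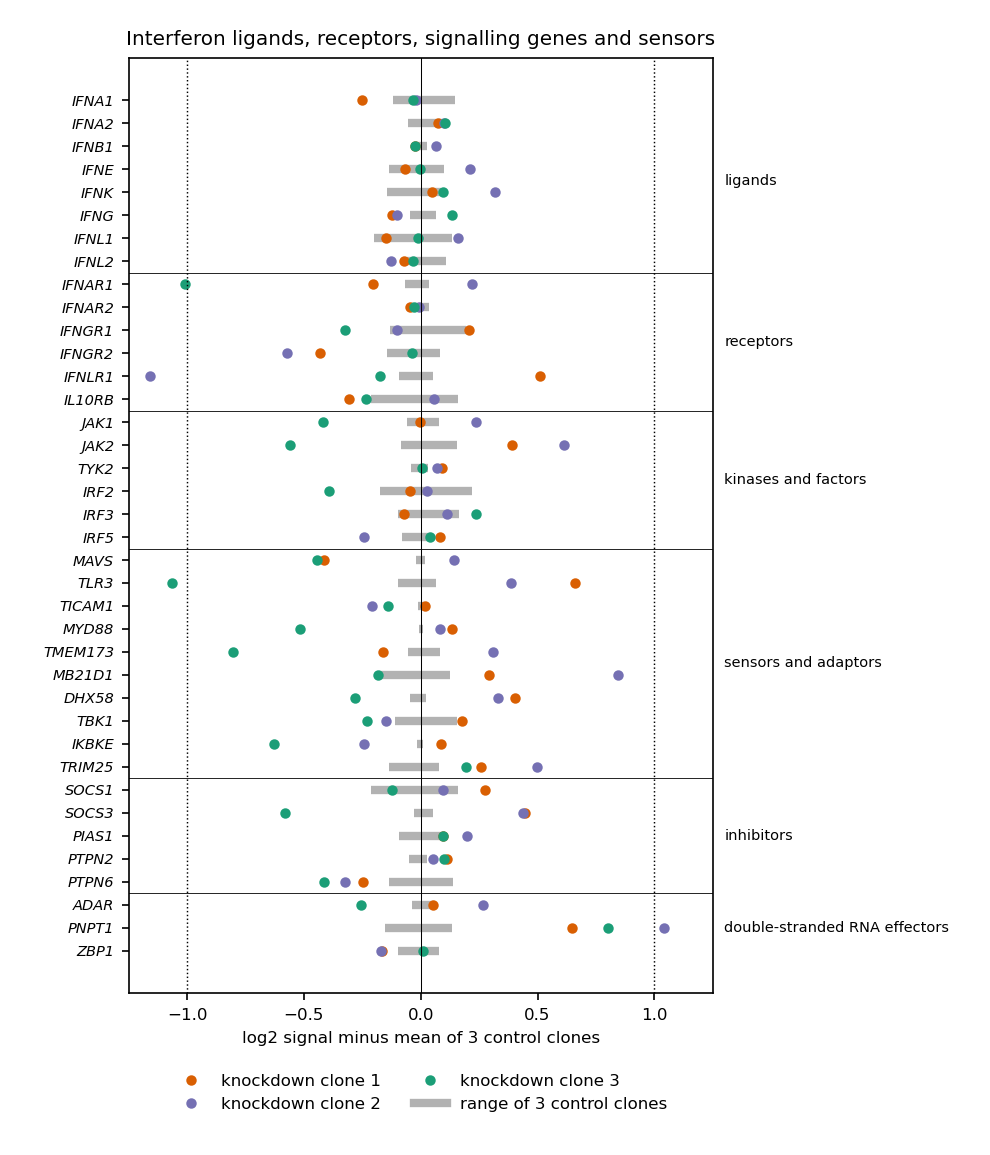
Log2 signal minus the control mean (horizontal axis) in knockdown clones 1 to 3 (coloured points) for 38 other genes of the interferon pathway (rows, grouped by role). Grey bars give the range of the 3 control clones and dotted lines mark a 2-fold difference. The ligands stay near 0, while IFNAR1 and TLR3 (the last not shown to be above background) pass the dotted line in clone 3, IFNLR1 and PNPT1 in clone 2.

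The knockdown clones also differed from the control clones in RNA quality. The 3′ minus 5′ index of the GAPDH and ACTB control probe sets, which tracks RNA quality, was 2.11, 1.62 and 1.66 in knockdown clones 1, 2 and 3, against 1.13, 1.47 and 1.26 in the control clones. All knockdown clones were above all control clones. With the index as a covariate the median change of the 48 genes was −0.28, against −0.05 without it. None of them passed in limma, where 0.00506% of all genes passed. Over all genes, 0.501% to 1.47% were at least 2-fold higher and 0.551% to 1.75% at least 2-fold lower in a knockdown clone, most in clone 3. The part of residual WASF3 and of the hairpin carried by each clone in the split was not tested.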

How the data were processed

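Each of the 6 clones was measured on 1 Affymetrix U133 Plus 2.0 array, and the deposited log2 values are RMA signals that the authors obtained from Affymetrix Expression Console 1.0, as the submitters' processing notes state. Of 54675 probe sets, 62 controls were left out and 54613 were tested. The platform annotation gave 41091 probe sets 1 gene symbol, 1801 several and 11721 none, and symbols were updated by gene identifier (41037 matched). The members and lists were chosen with earlier results of these data known.

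Groups were compared with limma 3.58.1 in R 4.3.3 (lmFit, eBayes without trend, two-sided), with Benjamini-Hochberg adjustment over all 54613 probe sets and a threshold of 0.05. The procedure was tested on simulated data. The log2 difference of a clone from the control mean has no test. Named were the genes that passed, those at least 2-fold off in a knockdown clone, the most divergent gene of any other role group, and the receptors. Other genes were named after their values were seen. The number of arrays limits the precision. Same-numbered knockdown and control clones correlated at −0.070, −0.096 and −0.042 in their deviations, so the numbers were not treated as pairs. Alternatives were the mean of all probe sets, no probe sets marked _x_at or _s_at, a minimum mean log2 of 5, a 1.5-fold mark, an intensity trend, the RNA index as a covariate, the replicate block and leaving out each clone.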

Additional observations from a re-analysis of the deposited data

How the results depend on the processing

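For the interferon-stimulated genes, 0 passed in either direction in limma with all 6 clones under the mean of all probe sets, without probe sets marked _x_at or _s_at, above a mean log2 of 5, with an intensity trend, with the RNA index as a covariate and with the replicate block. Over all genes of each fit, 0.00506% to 1.5% passed in these settings. Leaving out 1 clone at a time gave 0 to 15 higher and 0 to 1 lower, where 0.0101% to 6.19% of all genes passed. The 15 higher and 1 lower came without knockdown clone 3, and 1 was lower without knockdown clone 1. The WASF3 change ranged from −1.63 to −0.99 under the same omissions, and passed without knockdown clone 3 (adjusted p = 0.0175 in limma). For the other pathway genes, where PNPT1 had passed, 0 were higher without probe sets marked _x_at or _s_at or with the replicate block. The same held with the intensity trend and with the RNA index. With 1 clone left out, 0 to 3 were higher and 0 to 1 lower, where 0.0101% to 6.19% of all genes passed. Over all genes 0.0152% passed with the replicate block, against 0.738% without it, and the clone numbers do not show paired samples. At a 1.5-fold mark, clone 1 had 11 genes higher and 3 lower, clone 2 had 19 higher and clone 3 had 25 lower. On the lower side, the genes past this mark in clone 2 were IFI27 (−2.03), IFITM1 (−1.32) and BST2 (−0.74). The share of all genes past 1.5-fold is not given here, so these counts have no background to be read against. Without probe sets marked _x_at or _s_at, clone 2 had 1 gene at least 2-fold lower. The median change of the interferon-stimulated genes was −0.05 with all clones, 0.26 without knockdown clone 3 and −0.28 with the RNA index as a covariate. Knockdown clone 3 held the low values of the split, so leaving it out favours a rise and does not test the split. Without knockdown clone 3, OASL changed sign to 0.52 (adjusted p = 0.0321 in limma) and SAMD9 to 0.63 (adjusted p = 0.0388 in limma). The cause of these shifts was not tested, and the 9 dim genes limit what the signal over background can show.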

Other observations

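Beside IFIT1, IFIT2 and IFIT3, the 21 genes at least 2-fold higher in knockdown clone 1 or 2 and at least 2-fold lower in clone 3 included genes of other kinds. They are given as values, with no test, and were named after their values were seen. HLA-DRA, an antigen-presenting molecule that interferon gamma induces, differed from the control mean by −0.04, 1.90 and −1.33 in knockdown clones 1, 2 and 3. CD24, a surface glycoprotein of epithelial cells, differed by 0.78, 1.20 and −1.34. SHROOM2, a regulator of actin at cell junctions, differed by 1.31, 1.45 and −1.17. The epithelial sodium channel subunit SCNN1A was high in clone 1 alone, at 1.45, −0.50 and −1.15. Outside this set of 21, the adherens junction gene CDH1 read 7.33, 4.44 and 4.47 in knockdown clones 1, 2 and 3, against 5.19, 4.59 and 5.05 in control clones 1, 2 and 3, so that clone 1 stood above all others.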
